A study of Mus musculus with 12 samples.

Results

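Mist1, the product of Bhlha15, is a basic helix-loop-helix transcription factor of secretory cells, and its binding in plasmablasts (PBs) was mapped in 2 Bio-ChIP-seq experiments. Peaks of either experiment that shared at least 1 bp with a peak of the other were merged to 23806 common regions on the mm9 genome, and 720 of them (3.02%) were 3000 bp or wider. These 720 wide regions are described here. They held 2790470 bp, or 9.52% of all bases in common regions. The regions were chosen by their measured width after merging, so width and peak numbers are given as a description without a test.

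The ChIP PBs were grown for 4 days with LPS from spleen B cells (CD43-) of mice that were Bhlha15 fl/fl and carried BirA on both Rosa26 alleles, and were enriched for CD138+ cells with beads. Their Bhlha15 allele codes for a biotin-tagged Mist1, which was pulled down with streptavidin after biotinylation by the BirA ligase. RNA-seq covered 5 groups of 2 libraries. Splenic plasma cells (PCs), sorted as TACI+CD138+ cells 7 days after NP-KLH immunization, were controls (labelled wildtype, and Bhlha15 fl/fl according to the methods) or Cd23-Cre Bhlha15 fl/fl. PBs sorted as CD138+CD23- cells after 8 days in the iGB system, in which B cells grow on feeder cells with IL-4 and then IL-21, were Xbp1 fl/fl controls, Cd23-Cre Xbp1 fl/fl or Bhlha15 CreER/CreER. Cd23-Cre deletes from the immature B cell stage onward in the B lineage, whereas Bhlha15 CreER/CreER cells carry the insertion in every cell. All mice were C57BL/6. The binding map and the 2 sets of RNA therefore come from 3 different cell preparations, and the PB Mist1 group had Xbp1 fl/fl rather than Bhlha15 fl/fl controls.

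Basic helix-loop-helix proteins bind DNA as dimers at E-boxes, short sites with the letters CANNTG, and Mist1 shares this site with the E proteins E2A (Tcf3) and E2-2 (Tcf4). In plasma cells, acinar cells and other secretory cells Mist1 acts downstream of Xbp1, the factor that drives the secretory part of the unfolded protein response. A region of binding far wider than a single site can hold many sites or several adjacent peaks, and the peak lists give its reach but not its height.

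Windows of 120 bases from 11 wide regions are printed so that the sites can be read. Each is the window with the most E-boxes within bases covered by both experiments and outside annotated untranslated sequence. Their E-box number was chosen and is not a finding. Sequence is the plus strand of mm9, with E-boxes in capitals. The first 6 come from the 2 widest regions with a protein-coding gene (Mgat1 and Vmp1) and from genes for plasma cell regulators and an ER protein. The Mgat1, Irf4, Xbp1, Tcf3 and Edem1 windows lie in introns of those genes, and the Vmp1 window lies outside annotated genes.

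Mgat1, chr11:49065805-49065924: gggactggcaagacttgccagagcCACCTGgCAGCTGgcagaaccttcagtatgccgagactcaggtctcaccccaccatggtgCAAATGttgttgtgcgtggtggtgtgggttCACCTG
Vmp1, chr11:86395697-86395816: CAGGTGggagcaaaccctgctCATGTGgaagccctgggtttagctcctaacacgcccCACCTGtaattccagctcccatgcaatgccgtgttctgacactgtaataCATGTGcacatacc
Irf4, chr13:30844862-30844981: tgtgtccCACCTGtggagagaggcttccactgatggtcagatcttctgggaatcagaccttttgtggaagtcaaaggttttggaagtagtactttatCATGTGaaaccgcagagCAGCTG
Xbp1, chr11:5422567-5422686: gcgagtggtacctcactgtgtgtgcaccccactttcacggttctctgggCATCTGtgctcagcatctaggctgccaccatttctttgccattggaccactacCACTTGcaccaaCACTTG
Tcf3, chr10:79893970-79894089: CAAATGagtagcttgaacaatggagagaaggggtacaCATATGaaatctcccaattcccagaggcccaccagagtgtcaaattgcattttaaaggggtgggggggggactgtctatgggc
Edem1, chr6:108781246-108781365: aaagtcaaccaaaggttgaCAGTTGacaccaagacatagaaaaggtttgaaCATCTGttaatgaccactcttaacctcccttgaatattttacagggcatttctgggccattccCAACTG

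The other 5 come from wide regions at the transcription start site (TSS) of genes whose mRNA fell more than 3-fold in Mist1-deficient PCs. The Gpr65 window lies 187 bp upstream of the nearest transcript start and outside annotated genes. The others are intronic, and the Sla window lies within introns of both Sla and Tg.

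Serpini1, chr3:75361565-75361684: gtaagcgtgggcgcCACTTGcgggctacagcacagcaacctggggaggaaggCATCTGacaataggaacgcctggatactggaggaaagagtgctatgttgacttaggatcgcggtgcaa
Gpr65, chr12:99506598-99506717: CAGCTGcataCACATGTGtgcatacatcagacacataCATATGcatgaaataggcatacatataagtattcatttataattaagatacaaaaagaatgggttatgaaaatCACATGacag
Hs2st1, chr3:144232354-144232473: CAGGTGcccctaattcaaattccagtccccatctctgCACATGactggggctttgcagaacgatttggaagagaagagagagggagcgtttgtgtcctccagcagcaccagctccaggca
Sla, chr15:66645645-66645764: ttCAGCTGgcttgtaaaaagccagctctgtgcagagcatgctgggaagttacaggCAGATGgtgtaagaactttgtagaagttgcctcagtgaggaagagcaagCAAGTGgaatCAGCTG
Ctla4, chr1:60967789-60967908: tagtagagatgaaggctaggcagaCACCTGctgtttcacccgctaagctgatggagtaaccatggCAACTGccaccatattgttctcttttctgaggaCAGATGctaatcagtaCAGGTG

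The wide regions ranged from 3002 to 11963 bp with a median of 3566 bp. In 295 of them each experiment had 1 peak, and in 70 at least 1 experiment had 3 or more peaks. A single peak of 3000 bp or more was present in both experiments in 225 regions and in neither in 145, where only merging passed the width. Bases covered by both experiments made up a median of 86.5% of a wide region and 79.7% of a narrower one. Experiment 2 covered more bases than experiment 1 in 59.4% of the wide regions, and in 59.7% of the narrower ones. Just inside the limit were regions of 3002 bp in the body of Dnajb12, 3005 bp at Trim7 and 3005 bp at Arid2, and just outside were regions 1 bp short of it at Spop, of 2998 bp at Lamtor2 and Ubqln4 and 2996 bp at Ctdsp2. The values on both sides of the limit differed by a few bases.

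**Figure D1:**
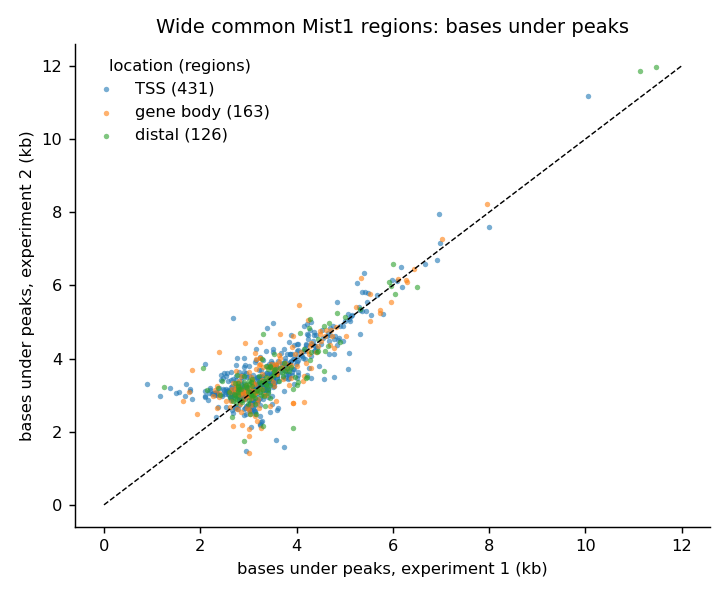
Bases under peaks (kb) of experiment 1 (x axis) and experiment 2 (y axis) in each of the 720 wide regions, coloured by location, with the line of equal coverage dashed. Most points lie near the line, and the 3 points above 11 kb on the y axis are 2 regions on chromosome Y and the Mgat1 region.

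Wide regions lay closer to other common regions than the narrower ones did. The median gap to the next common region was 2890 bp for wide and 8052 bp for narrower regions. Another common region lay within 5000 bp of 61.3% of the wide and 39.8% of the narrower regions. A second wide region lay within 10000 bp of 69 wide regions.

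The 2 widest regions, of 11963 and 11860 bp, were on chromosome Y, which held 5 wide regions among its 20 common regions. All 5 were distal, and only 80.8% to 89.8% of the 32-base words in them occurred once in the genome. Chromosome X held 1 wide region among 331 common regions (0.302%), at the TSS of Brcc3 and Mtcp1, whereas the autosomes had 2.00% to 3.77%. Among all wide regions, 35 (4.86%) had under 90% of such words at 1 place, and 10.03% of the narrower ones did. They included a region of 5987 bp over the pseudogene AY036118 on chromosome 17 with 84.9%, and 2 regions at histone gene clusters with 75.0% and 71.3%.

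The widest region with a protein-coding gene spanned 11620 bp at Mgat1, which codes for the enzyme that starts complex N-glycans, and it merged 5 peaks of experiment 1 with 3 of experiment 2. A region of 8414 bp overlapped Vmp1, an autophagy gene, and the microRNA gene Mir21. The next were 8070 bp at Trib1, a pseudokinase gene, 8047 bp at Cytip, a scaffold gene of lymphocyte adhesion, and 7616 bp within the IL-17 receptor gene Il17ra. Regions of 7346 bp at Arl5c and Cacnb1, 6929 bp at the Golgi mannosidase gene Man1a and 6829 bp at the apoptosis gene Bmf completed the 10 widest. Wide regions also overlapped the long non-coding RNA gene Neat1 (6696 bp), Mir142 (3094 bp) and the immunoglobulin constant-region gene Ighm (6304 bp). These 3 were named after the list of regions was seen.

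Of the 720 wide regions, 431 (59.9%) reached to within 1 kb of the TSS of a protein-coding transcript, 163 (22.6%) lay in a gene body and 126 (17.5%) were distal. Among the 23086 narrower regions, 32.3% were at a TSS, 38.2% in a gene body and 29.5% distal. A wide region reaches a TSS more easily because of its length. By the midpoint alone, 42.1% of the wide and 29.7% of the narrower regions were at a TSS. The share of TSS regions already stood at 57.5% among regions of 2000 to under 3000 bp, so it was not particular to the limit of 3000 bp. Among regions of 4000 bp and more, 58.2% were at a TSS, but only 28.4% by the midpoint.

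**Figure D2:**
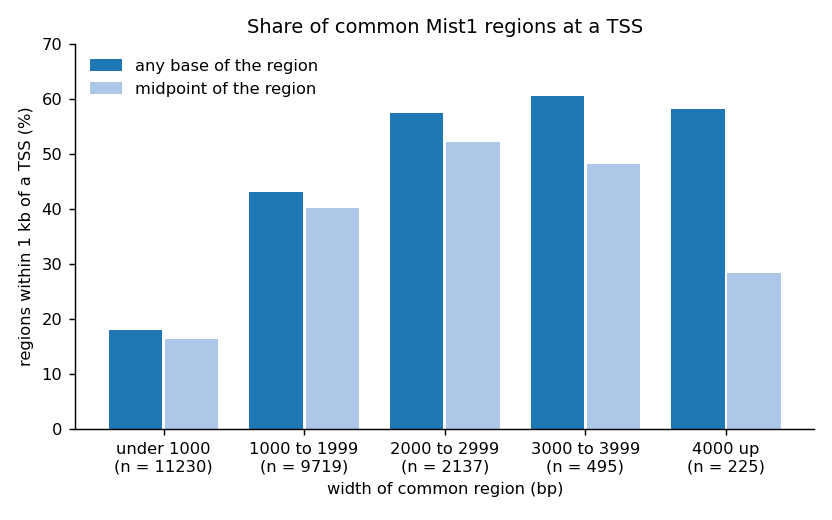
Share of common regions within 1 kb of a TSS (%) by width class (x axis, bp, with the number of regions), for any base of the region (dark bars) and for its midpoint (light bars). The dark bars climb from 18.1% under 1000 bp to 57.5% at 2000 to under 3000 bp and stay near that level, and the light bars drop to 28.4% in the widest class.

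The wide regions were not centred on gene starts. At 433 gene starts with a wide region, the region reached a median of 1251 bp upstream and 2293 bp downstream into the gene. It reached farther downstream at 299 of them (69.1%), and the narrower regions did so at 63.2% of 7391 starts. Of the wide regions at gene starts, 27.3% covered the position 3000 bp downstream, and 8.08% that 3000 bp upstream.

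**Figure D3:**
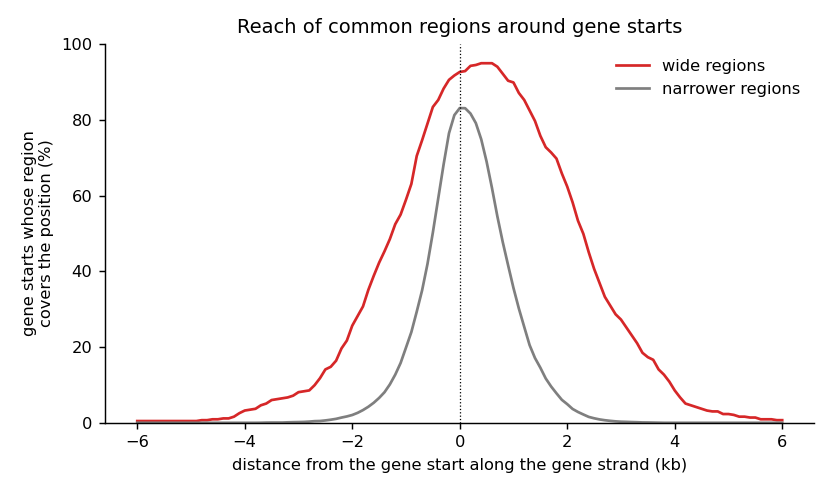
Share of gene starts (%) whose common region covers each position (x axis, kb along the gene strand, with positive values inside the gene) for wide (red) and narrower (grey) regions. The red curve is shifted to the right of the gene start, with 62.4% at 2000 bp downstream against 25.6% at 2000 bp upstream.

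E-boxes were present in 100% of the wide and 99.5% of the narrower regions. Their density was 5.91 per kb in wide regions, 6.29 in narrower ones and 5.55 over the genome, counting both strands and overlapping sites. The density was highest, at 7.05 per kb, in regions under 1000 bp. The order differed by location. At TSS the wide regions held 5.20 E-boxes per kb and the narrower ones 4.75, whereas among distal regions the values were 6.66 and 7.22. In the 200 bp at the midpoint there were 1.13 E-boxes in wide and 1.55 in narrower regions on average, and 65.0% and 77.1% of the regions had at least 1 there. Among single regions the density ran from 1.16 per kb at Smad7 to 35.7 per kb in a distal region of 3729 bp nearest to Foxn3, in which only 31.0% of the 32-base words were at 1 place.

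Of the 10 kinds of E-box, CAGCTG stood furthest above the genome, with 2.35 times its genome density in wide and 2.65 times in narrower regions. CACGTG had 1.91 and 1.94 times, and CACCTG 1.40 and 1.47 times. Between wide and narrower regions the ratio was lowest for CATATG (0.719) and CAGCTG (0.886), and highest for CAAGTG (1.05). CAGCTG was present in 94.6% of the wide and 66.1% of the narrower regions, which differ in length. The GC content had a median of 50.3% in wide and 48.4% in narrower regions. The observed over expected ratio of CpG was 0.364 and 0.261, and it was higher still, at 0.460, in regions of 2000 to under 3000 bp. These sequence values are a description of the regions, and matched letters are not bound sites.

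A TSS within 1 kb of a wide region was found for 492 protein-coding genes, 481 of which were in the RNA tables, where levels are given as TPM, the abundance of a transcript scaled to its length and to the library. A further 135 genes in the tables had a wide region in the gene body only. The genes with a wide region at the TSS were more highly expressed than those with a narrower one. In the PC control libraries their median was 75.1 and 75.3 TPM, against 32.6 and 33.7 TPM for the 7283 genes with only a narrower region at the TSS. In the PB controls the medians were 54.6 and 53.8 TPM against 28.3 and 29.4 TPM. The level rose with width throughout, from 18.3 and 19.1 TPM in PC controls for genes whose widest TSS region was under 1000 bp to 110.0 and 115.7 TPM at 4000 bp and more. All 10 libraries had this order, which is a description over genes and not over replicates.

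Libraries of a group were read against each other before any comparison. Over the 481 genes, the median absolute log2 difference between the 2 libraries of a group was 0.064 to 0.124. No comparison of 2 against 2 libraries can give an exact permutation p under 0.333, so single genes were tested with limma over all genes of the table. Bhlha15 itself, which had no wide region, stood at 258 and 242 TPM in PC controls and 14.4 and 16.6 TPM in Mist1-deficient PCs. In PBs it stood at 176 and 159 TPM in controls, 0.210 and 0.551 TPM in Bhlha15 CreER/CreER and 3.57 and 2.60 TPM in Xbp1-deficient PBs. Bhlha15 was thus low in both libraries of each mutant group. Xbp1 had 3168 and 3043 TPM in PB controls and 1981 and 2024 TPM in Xbp1-deficient PBs. Gene-level TPM does not separate deleted from remaining exons, and the source of the remaining Xbp1 mRNA was not tested. Cell type markers were summed over TPM as deposited, without rescaling, here and below. In PCs the B cell and T cell sums did not overlap between the groups, whereas the neutrophil and macrophage sums did. The 4 macrophage markers summed to 197 to 201 TPM in PC controls and 180 to 210 TPM in Mist1-deficient PCs. The 5 B cell markers summed to 900 to 1192 TPM in PC controls and 672 to 743 TPM in Mist1-deficient PCs, the 6 neutrophil markers to 436 to 934 TPM and 533 to 799 TPM, and the 6 T cell markers to 69.9 to 70.7 TPM and 77.7 to 100.4 TPM. The 8 plasma cell markers summed to 91316 to 97311 TPM and 96658 to 98451 TPM. In bulk RNA, fewer cells of a type and less RNA per cell cannot be told apart, and the part of these markers in the results was not tested.

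Loss of Mist1 in PCs went with lower mRNA of many genes that carried a wide region at the TSS. Of the 481 genes, 471 passed the filter of 1 TPM in at least 2 libraries. At an adjusted p under 0.05 (limma, Benjamini-Hochberg), 175 of them (37.2%) fell and 34 (7.22%) rose, against 16.2% and 13.3% of all 12028 genes tested. Only 2 tested genes, Arpp21 and Hist1h2ad, reached 1 TPM in 1 group alone, and 1 of these was called. The median log2 change was -0.16 for the wide-region genes and 0.01 over all genes, so most changes were small. Of the genes with only a narrower region at the TSS, 20.1% fell and 12.3% rose, and of those with no common region 7.90% fell and 17.0% rose. Leaving out either knockout library lowered the counts of wide-region genes, and the shares over all genes were lower as well. The median log2 change of the wide-region genes was then -0.15 and -0.16, against 0.02 and 0.01 over all genes.

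The share of genes that fell at an adjusted p under 0.05 followed width. It was 13.0% for genes whose widest TSS region was under 1000 bp, 19.5% at 1000 to under 2000 bp, 29.8% at 2000 to under 3000 bp, 35.8% at 3000 to under 4000 bp and 40.4% at 4000 bp and more. The increase therefore did not begin at 3000 bp. The shares also differed between wide and narrower regions at similar expression. Among genes of 30 to 100 TPM, 39.8% of the 181 with a wide region fell, and 21.8% of the 2486 with a narrower one. At 10 to 30 TPM the shares were 38.8% of 85 and 19.8% of 1830, and at 100 TPM and more 36.7% of 180 and 19.0% of 1333. Under 10 TPM they were 16.0% of only 25 genes and 18.5% of 1142. Of the 129 tested genes with a wide region in the gene body only, 27.1% fell and 13.2% rose.

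**Figure D4:**
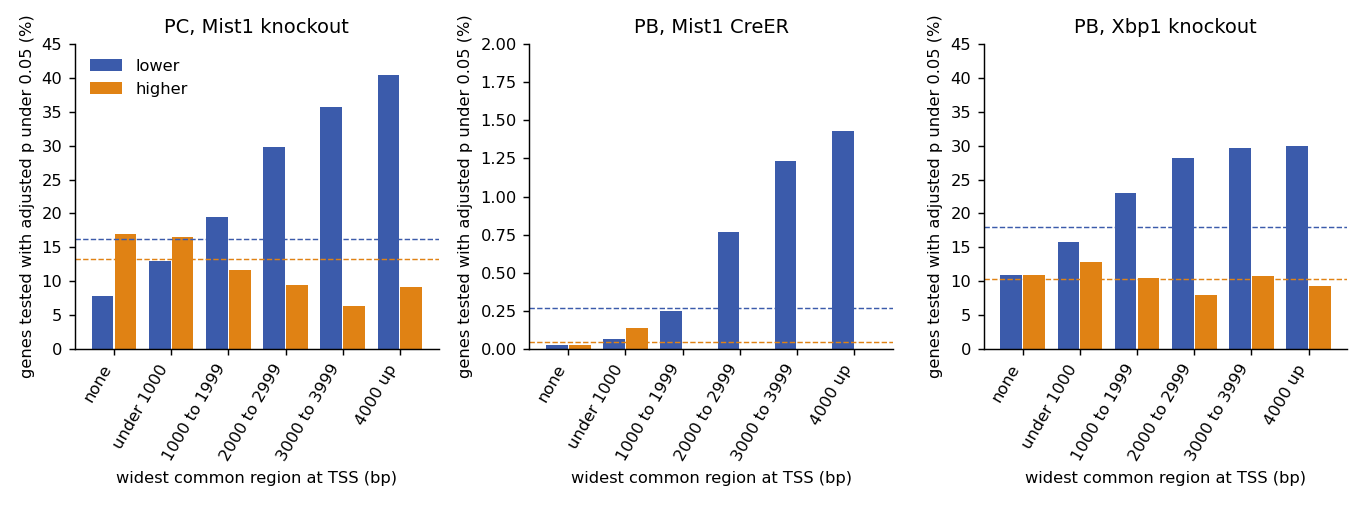
Share of tested genes (%) with lower (blue) or higher (orange) mRNA at an adjusted p under 0.05, by the widest common region at the TSS (x axis, bp), for Mist1 loss in PCs, Mist1 CreER PBs and Xbp1 loss in PBs. Dashed lines are the shares over all genes tested, and the axis of the middle panel ends at 2%. The blue bars of the first panel climb from 7.90% without a common region to 40.4% at 4000 bp and more.

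With the fold limit of the study (above 3-fold, adjusted p under 0.05 and above 5 TPM in the higher group), 8 of the 471 genes fell and none rose in Mist1-deficient PCs, against 0.723% and 0.125% of all genes. By the adjusted p alone 34 rose. The fold limit did not follow width throughout. Of genes whose widest TSS region was 3000 to under 4000 bp 2.12% fell past it, but at 4000 bp and more 0.709% of 141, near the share over all genes. Serpini1, which codes for the serine protease inhibitor neuroserpin, had 45.7 and 35.5 TPM in controls and 3.79 and 5.31 TPM in Mist1-deficient PCs. It fell by 3.12 ± 0.21 (SE) on the log2 scale (limma adjusted p = 0.00133). Both knockout libraries were far below both controls. Gpr65, a proton-sensing receptor gene, had 117 and 101 TPM against 17.8 and 17.4 TPM, a change of -2.60 ± 0.10 (limma adjusted p = 0.000748). Hs2st1, the heparan sulfate 2-O-sulfotransferase gene, had 25.5 and 21.5 TPM against 5.70 and 5.602 TPM, a change of -2.01 ± 0.13 (limma adjusted p = 0.00133). The libraries of each group did not overlap for either gene.

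Sla, an adaptor gene that dampens antigen receptor signalling, had 264 and 237 TPM in PC controls against 64.6 and 70.8 TPM without Mist1, a change of -1.87 ± 0.09 (limma adjusted p = 0.000987). Its wide region of 6086 bp was the widest of these 8 genes. Ctla4, which codes for an inhibitory receptor of lymphocytes, had 149 and 132 TPM against 45.2 and 36.3 TPM, a change of -1.77 ± 0.13 (limma adjusted p = 0.00151). Ccrl2, an atypical chemoattractant receptor gene, had 55.9 and 44.7 TPM against 16.3 and 13.5 TPM, a change of -1.73 ± 0.15 (limma adjusted p = 0.00205), and without control library 1 its change of -1.53 was under the fold limit.

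The remaining 2, Htra2, a mitochondrial protease gene, and Arpp21, carry a mark in the tables for overlap with another gene, so their reads may be split with a neighbour. Htra2 had 145 and 134 TPM in PC controls and 28.6 and 31.9 TPM without Mist1. Arpp21 had 6.52 and 4.93 TPM and 0.558 and 0.493 TPM, and passed the filter only through its controls. Pvrl4, which codes for the adhesion molecule nectin-4, had a wide region in its body and was the only such gene past the fold limit, with 6.72 and 4.07 TPM against 1.34 and 1.76 TPM (limma adjusted p = 0.0136).

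**Figure D5:**
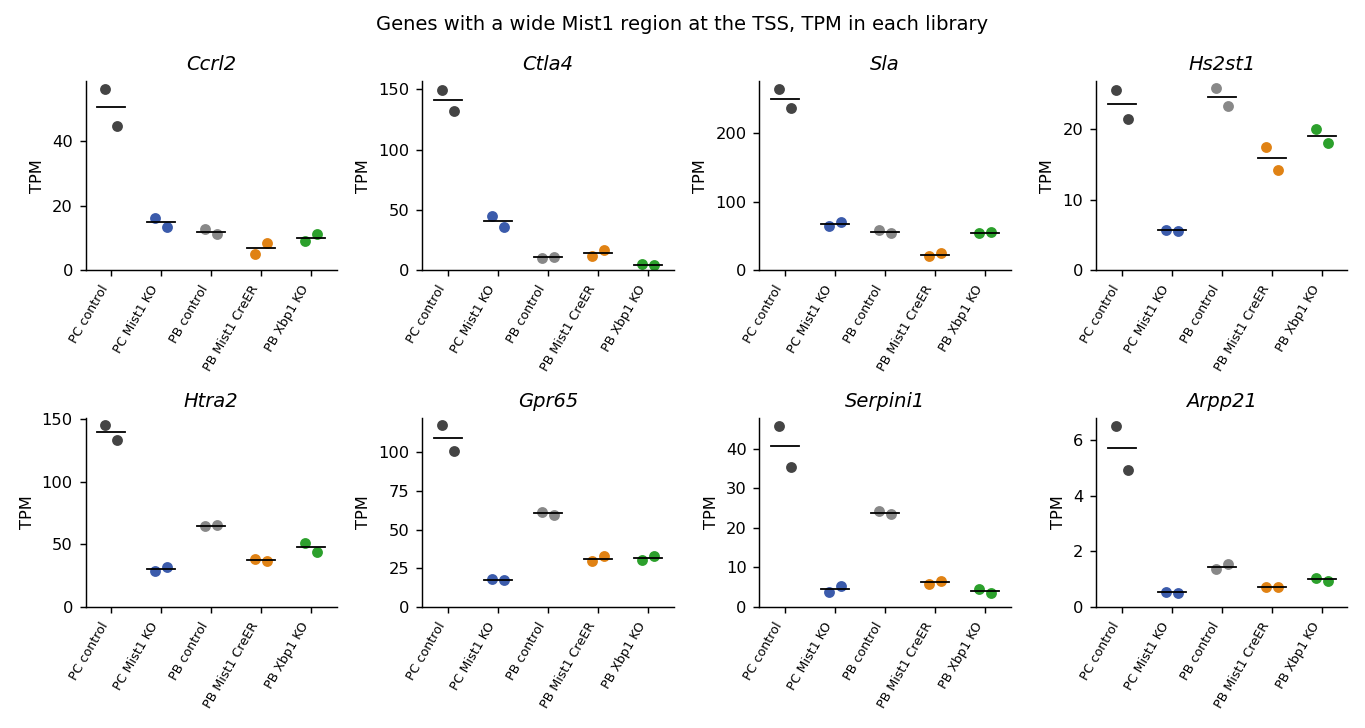
TPM (linear axes starting at 0) of the 8 genes with a wide region at the TSS that fell more than 3-fold in Mist1-deficient PCs, with 1 point per library and a line at the mean of 2. In each panel both Mist1-deficient PC libraries lie below both PC controls.

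In Bhlha15 CreER/CreER PBs, 464 of the 481 genes were tested, and 6 fell and none rose at an adjusted p under 0.05, against 0.272% and 0.0495% of all 12125 genes. The 6 were Serpini1, Sla, Gpr65, Htra2, Rassf4 and Abcf2, and each of them also fell in Mist1-deficient PCs. Over all genes, 27 of the 33 that fell in CreER PBs also fell in Mist1-deficient PCs, so this overlap was not particular to wide-region genes. Serpini1 had 24.2 and 23.4 TPM in controls and 5.93 and 6.56 TPM in CreER PBs, the only 1 of the 464 past the fold limit, against 0.033% of all genes (limma adjusted p = 0.00303). Its libraries did not overlap between the groups. Sla had 58.8 and 53.8 TPM against 20.7 and 24.9 TPM (limma adjusted p = 0.00809), and Gpr65 had 61.3 and 59.6 TPM against 29.6 and 32.9 TPM (limma adjusted p = 0.0165). Without PB control library 1 none of the 6 was called, and the other leave-outs gave 2 to 7. Abcf2 had 104 and 99.6 TPM against 72.6 and 65.9 TPM, and Rassf4, which carries the overlap mark, 25.4 and 25.6 TPM against 16.8 and 15.5 TPM. Marker sums also differed between these groups without overlap. The B cell markers summed to 733 to 745 TPM in CreER PBs against 866 to 886 TPM in controls, the neutrophil markers to 0.981 to 6.20 TPM against 7.92 to 8.41 TPM, and the 4 macrophage markers to 150.4 to 167 TPM against 134 to 136 TPM. Their part in these calls was not tested.

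The PC and PB Mist1 comparisons used no library in common. Of all 464 wide-region genes tested in PBs, 310 (66.8%) had a negative log2 change, with a median of -0.07. Of the wide-region genes that fell in PCs, 173 were tested in PBs, and 152 (87.9%) had a negative log2 change there. Over all genes that fell in PCs the share was 81.4%. Of the 34 that rose in PCs, 10 (29.4%) were negative in PBs, against 18.4% of all genes that rose. The median log2 change of the 173 genes in PBs was -0.16.

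Xbp1 loss in PBs used the same control libraries as the CreER comparison, so its values are given by themselves. Of the 464 genes tested, 138 (29.7%) fell and 48 (10.3%) rose at an adjusted p under 0.05, against 18.0% and 10.3% of all genes. With any 1 library left out both counts were lower, and so were the shares over all genes. The median log2 change of the wide-region genes was then -0.11 to -0.06. With TPM as deposited, without rescaling, the median log2 change of all genes was 0.21. On that scale 20.9% of the wide-region genes fell and 29.96% rose, against 11.2% and 28.2% of all genes. By the fold limit 12 fell and 1 rose, against 1.63% and 0.239% of all genes. The fallen genes included Serpini1, Sec61b, Ero1lb, Mzb1, Tmem214, Serp1, Arfgap3, Mlec, Trabd, Chid1 and P4hb, with ER genes for translocation (Sec61b), oxidative folding (Ero1lb, P4hb) and glycoprotein folding (Mlec). Sec61b had 841 and 799 TPM in controls and 190 and 170 TPM without Xbp1, a change of -2.40 ± 0.11 (limma adjusted p = 2.67e-06). The gene that rose was Ern1, which codes for Ire1, the ER sensor that splices Xbp1 mRNA, with 50.5 and 52.2 TPM against 168 and 209 TPM (limma adjusted p = 1.87e-05). Without Xbp1-deficient library 2 its change of 1.499 was under the fold limit, and no gene rose past it. Xbp1-deficient PBs also had higher neutrophil marker sums of 119 to 121 TPM against 7.92 to 8.41 TPM, and lower macrophage marker sums of 32.4 to 34.9 TPM against 134 to 136 TPM. The 5 fibroblast markers of the feeder cells summed to 1291 to 1414 TPM against 926 to 1106 TPM, and the 5 B cell markers to 987 to 1041 TPM against 866 to 886 TPM. These sums are of TPM as deposited, where the median log2 change of all genes was 0.21, and sums after rescaling were not compared. The 8 plasma cell markers, which include Xbp1 and the fallen gene Mzb1, summed to 21029 to 21660 TPM against 41761 to 41765 TPM. Mzb1 alone had 3707 and 3547 TPM against 15573 and 14995 TPM. In deposited TPM, Xbp1 and Tnfrsf17 were also lower in both libraries, and Irf4, Prdm1 and Tnfrsf13b were higher in both. After rescaling, Xbp1 and Tnfrsf17 passed the test (limma adjusted p = 0.00144 and 0.00296). The log2 changes of Irf4, Prdm1 and Tnfrsf13b were then 0.25, 0.28 and 0.01, and none passed (limma adjusted p = 0.125, 0.164 and 0.95). Irf4 had 865 and 971 TPM against 683 and 651 TPM. The part of these markers in the counts was not tested.

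Of all 12028 genes tested in PCs, 471 had a wide region at the TSS, a count to set beside those of the lists below. Among 16 plasma cell regulators, 9 had a wide region at the TSS, and Ikzf3 had 2 in its body. The 9 were Irf4, Xbp1, Ikzf1, Tcf3, Tcf4, Ell2, Pou2f1, Pou2f2 and Ern1. Ikzf1, the Ikaros gene, had 3 wide regions in all, and Xbp1 had regions of 5311 and 3630 bp. Prdm1, which codes for Blimp1, had 6 common regions, the widest of 2321 bp, and none that was wide. Of the 9 genes, 1 fell and 3 rose in Mist1-deficient PCs, against 16.2% and 13.3% of all genes. None of the 9 passed the test in CreER PBs, where 0.272% of all genes fell and 0.0495% rose. Irf4, a factor required for plasma cells, had 688 and 739 TPM in controls and 947 and 886 TPM without Mist1, a change of 0.38 ± 0.06 (limma adjusted p = 0.00952). Tcf3 had 179 and 198 TPM against 229 and 228 TPM (limma adjusted p = 0.0136), and Ern1 170 and 202 TPM against 230.5 and 214 TPM (limma adjusted p = 0.0482). Pou2f2, the Oct2 gene, had 123 and 122 TPM against 65.4 and 56.9 TPM and carries the overlap mark. Xbp1 itself had 5099 and 4458 TPM against 5296 and 5086 TPM (limma adjusted p = 0.38).

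Of 24 genes for ER folding and translocation, 4 had a wide region at the TSS under their listed symbols. Mzb1 also had one, under another gene name of the annotation, and is not among these 4. Sec61b, a translocon subunit gene, had 1089 and 1231 TPM in PC controls and 856 and 910 TPM without Mist1. It was the only 1 of the 4 that fell, against 16.2% of all genes. Mzb1 did not pass the test in PCs (limma adjusted p = 0.625). In Xbp1-deficient PBs 22 of the 24 list genes fell, against 18.0% of all genes. Mzb1 fell from 15573 and 14995 TPM to 3707 and 3547 TPM. Among the 4, Sec61b and Edem1, a gene of ER-associated degradation, fell. Edem1 had 1776 and 1705 TPM in controls and 789 and 905 TPM without Xbp1. The chaperone genes Hspa5 and Hsp90b1 were the rest of the 4. Hspa5 had 7262 and 7136 TPM against 8616 and 9223 TPM, and Hsp90b1 15657 and 15277 TPM against 21101 and 21269 TPM, and neither passed the test (limma adjusted p = 0.721 and 0.47).

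Among 12 plasma cell surface and homing genes, 5 had a wide region at the TSS. Cd93, a surface receptor gene of plasma cells, had 139 and 129 TPM in PC controls and 58.4 and 52.3 TPM without Mist1, a change of -1.26 ± 0.09 (limma adjusted p = 0.00133). Slamf7, a SLAM family receptor gene, rose from 373 and 378 TPM to 540 and 524 TPM (limma adjusted p = 0.00277). The 5 genes thus included 1 that fell and 1 that rose, against 16.2% and 13.3% of all genes. Tnfrsf13b, the TACI gene, S1pr1 and Itga4 did not pass the test, and their log2 changes were 0.09, 0.06 and 0.07. S1pr1, a sphingosine-1-phosphate receptor gene, had 11.8 and 13.1 TPM in PB controls and 19.9 and 19.2 TPM in CreER PBs (limma adjusted p = 0.0665).

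Of 13 AP-1 and NF-kB genes, Jun, Junb, Jund and Nfkbia had a wide region at the TSS. Nfkbia, the gene for an inhibitor of NF-kB, fell from 812 and 683 TPM to 567 and 527 TPM in Mist1-deficient PCs (limma adjusted p = 0.0361). Jun had 69.1 and 58.2 TPM in PB controls and 115 and 167 TPM in CreER PBs, which did not pass the test (limma adjusted p = 0.0661). Junb and Jund did not pass either Mist1 comparison. In PCs 1 of the 4 genes thus fell and none rose, against 16.2% and 13.3% of all genes. Of 16 B cell receptor and surface genes, Cd53 and Blnk had a wide region at the TSS and Cd79a in its body, and Cd53, a tetraspanin gene, fell from 543 and 538 TPM to 462 and 455 TPM in PCs (limma adjusted p = 0.0369). Blnk, an adaptor gene of B cell receptor signalling, had 656 and 627 TPM against 629 and 598 TPM (limma adjusted p = 0.648). Of these 2 genes with a wide region at the TSS, 1 thus fell, against 16.2% of all genes.

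Of 12 growth and survival genes, Cdk6, Pim1, Mcl1 and Bcl2l11 had a wide region at the TSS, and none of the 4 passed the test in either Mist1 comparison. Mcl1, a survival gene of plasma cells, had 1088 and 1073 TPM in PC controls and 1114 and 1034 TPM without Mist1. Bcl2l1, the Bcl-xL gene with a wide region in its body, rose from 39.4 and 40.2 TPM to 57.5 and 49.5 TPM (limma adjusted p = 0.0155). Of 12 B cell transcription factor genes, Foxo1 and Bcl11a had a wide region at the TSS. Foxo1 had 67.8 and 71.2 TPM in PC controls and 67.7 and 70.01 TPM without Mist1, while in PBs it rose from 74.5 and 68.5 TPM to 124 and 145 TPM without Xbp1 (limma adjusted p = 0.00113). Of 7 E and Id protein genes, Tcf3 and Tcf4 had a wide region at the TSS and Tcf12 in its body. Tcf12 had 99.2 and 91.9 TPM in PC controls and 73.9 and 69.5 TPM without Mist1 (limma adjusted p = 0.0163), and Tcf4 had 164 and 167 TPM against 159 and 153 TPM (limma adjusted p = 0.376).

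The 10 widest regions held genes that moved either way in Mist1-deficient PCs. Mgat1 had 649 and 614 TPM in PC controls and 688 and 666 TPM without Mist1 (limma adjusted p = 0.245). Il17ra, which also had a region of 3603 bp at its TSS, fell from 138 and 134 TPM to 87.5 and 89.7 TPM (limma adjusted p = 0.00264), and Arl5c fell from 124 and 117 TPM to 60.1 and 72.8 TPM (limma adjusted p = 0.00466). Cytip rose from 229 and 247 TPM to 316 and 300 TPM (limma adjusted p = 0.00627), and Bmf from 22.8 and 21.7 TPM to 26.8 and 28.4 TPM (limma adjusted p = 0.0353). Trib1, Vmp1 and Cacnb1 fell (limma adjusted p = 0.0373, 0.0212 and 0.0155). Vmp1 carries the overlap mark, and Vmp1 and Cacnb1 had their wide region in the gene body only. Man1a had 507 and 475 TPM against 543 and 533 TPM (limma adjusted p = 0.158).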

How the data were processed

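Positions of peaks and TPM tables were used as deposited. According to the methods, the authors aligned ChIP reads to mm9 with Bowtie 1.0.0 and called peaks in each experiment by itself with MACS, with input from mature B cells as the control. The deposited files give start and end only, with no height or p-value, and no read depth. For RNA the authors trimmed reads with cutadapt, aligned with STAR 2.4.2 to mm9, counted with featureCounts 1.5 and converted the counts to deposited TPM without immunoglobulin and T cell receptor genes. Sequencing depth is unknown here, since TPM keeps none, and so no count test was used.

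Peaks were intersected and merged with bedtools 2.31.1 (at least 1 bp shared). TSS, gene body and distal regions came from the GENCODE M1 annotation of mm9, using transcripts of protein-coding type within 1 kb. TPM were scaled by median of ratios, and log2 (TPM + 0.1) was tested with limma 3.58.1 (R 4.3.3, lmFit, eBayes with trend) on all genes with at least 1 TPM in 2 libraries, in 4 PC libraries or in 6 PB libraries, with Benjamini-Hochberg adjustment over all genes. Fold changes are on that scale and understate changes of low genes. The scripts were tested on simulated data. The methods describe 2 independent experiments for each genotype, but the labels name no animals, so p-values measure only the spread between these libraries. The series text states that the CreER libraries were not used for differential analysis, and it calls some groups by other cell names than the sample labels, which were followed. Xbp1 peaks were not analysed here.

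Members, gene lists and tests were chosen with earlier results of these data known. Named genes were those of the 10 widest regions, those past the fold limit in the Mist1 comparisons, list genes with a wide region, and the 3 regions on each side of 3000 bp; genes called by adjusted p in CreER PBs and past the fold limit without Xbp1 were added after their values were seen.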

Additional observations from a re-analysis of the deposited data

Results flagged for a closer look

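Among 40 named genes, 3 had both Mist1-deficient PC libraries on one side of their controls and both CreER PB libraries on the other. The difference between the comparisons was not tested. The share of all genes with this pattern was not counted, so the number is a description only. The log2 changes in PCs and PBs were -1.77 and 0.41 for Ctla4, -0.16 and 0.10 for Hspa5, and 0.088 and -0.31 for Tnfrsf13b. Only the change of Ctla4 in PCs passed the limma test.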

How the results depend on the processing

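Peak lists carry no heights and TPM no depth, so no counting interval is given, and 2 libraries a group limit every test. No paired analysis was possible because the replicate numbers were given in accession order. Where a library was left out, the lone library of its group was assumed to vary like the others. The causes of the changes below were not tested.

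The number of wide regions was 1375 from 2500 bp, 225 from 4000 bp, 394 on bases of both experiments, and 362 to 447 in single experiments. The share at a TSS was 42.1% by midpoint, 51.8% with 1 TSS a gene, and 55.2% to 60.6% in single experiments. E-boxes per kb were 6.04 with 50% overlap, 5.82 from 2500 bp, 5.65 in the 200 bp at the midpoint, 6.66 in distal regions, and 5.96 to 6.17 in single experiments. The median PC control level was 65.4 TPM from 2500 bp and 112.9 TPM from 4000 bp.

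In PCs, the fold limit gave 16 fallen genes from 2500 bp and 1 from 4000 bp, and 6 to 8 with a library left out, while the adjusted p alone gave 175 fallen and 34 risen. The 16 from 2500 bp were 1.76% of 907 genes tested and the 1 from 4000 bp 0.709% of 141, against 0.723% of all genes. By adjusted p alone, 310 fell and 73 rose from 2500 bp, and 57 fell and 13 rose from 4000 bp. With a TSS within 10 kb 59 of 609 rose. Of all genes 16.2% fell and 13.3% rose at these 3 settings. Without the variance trend 10 rose (2.12%), against 7.02% of all genes. With a library left out, 85 to 202 fell and 6 to 51 rose, with the lowest counts without either knockout library.

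In CreER PBs, the fold limit gave 0 from 4000 bp and 0 to 1 with a library left out, and the adjusted p alone gave 6. By adjusted p alone, 10 fell with TPM as deposited, 10 with at least 5 TPM, 10 with quantile normalization, 1 without the trend and 2 from 4000 bp. Of all genes 0.610%, 0.538%, 0.520%, 0.0907% and 0.272% fell at these settings. The risen genes were 2 with TPM as deposited, 2 with at least 5 TPM, 1 with only the groups compared and 1 with quantile normalization. Of all genes 0.0990%, 0.0914%, 0.0508% and 0.0990% rose there. With a library left out, 0 to 7 fell and 0 to 3 rose, with no fallen gene without PB control library 1, where Serpini1 had a change of -1.81 (limma adjusted p = 0.0679).

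Without Xbp1, the fold limit gave 21 fallen and 2 risen genes from 2500 bp, 2 and 0 from 4000 bp, and 12 to 13 and 0 to 1 with a library left out. Ern1, at 1.499, was below the limit without Xbp1-deficient library 2. The 2 from 4000 bp were 1.43% of 140 genes tested, against 1.63% of all genes. The adjusted p alone gave 138 and 48, against 18.0% and 10.3% of all genes. By adjusted p alone, 254 fell and 87 rose from 2500 bp, 42 and 13 from 4000 bp, and 113 rose under quantile normalization against 139 under TPM as deposited. With a library left out, 85 to 113 fell and 25 to 29 rose, with 85 without PB control library 1.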
